A study of Homo sapiens with 4 samples.

Results

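The 10 genes described are the core of the Notch pathway: the receptors NOTCH1, NOTCH2 and NOTCH3, the ligands JAG1, JAG2, DLL1 and DLL4, and the target genes HES1, HEY1 and HEY2. They were followed through H3K27ac, an acetylated form of histone H3 found at active promoters and enhancers, in the human melanoma line A375, an established line. Members were all regions of 1 deposited table whose assigned gene is among these 10, which gave 121 of the table's 91107 distinct regions: 35 at receptors, 40 at ligands and 46 at targets. The labels describe 4 chromatin immunoprecipitation libraries of the same cells, 2 after the vehicle isopropanol and 2 after 1 mM octanoate (a fatty acid of medium chain length), with 48 hours of exposure in both groups. Cells of both groups carried no genetic change that the labels name. Region coordinates are on hg38, per the submitters' processing notes. Nothing in the labels says whether libraries of a group came from separate cultures.

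Notch is a receptor that is also its own messenger. A ligand on a neighbouring cell pulls on the receptor, an ADAM protease and then the gamma-secretase complex cut it, and the freed intracellular domain joins the DNA-binding protein RBPJ and a Mastermind coactivator at target genes. The HES and HEY genes are the classic targets and encode repressors of transcription. In the pigment cell lineage the pathway is known for keeping melanocyte stem cells, and it has been studied in melanoma growth.

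The authors' deposited table gives, for each region, a mean level in their normalized units, a log2 fold change between the groups, its standard error and p-values, and no value per library. The errors below are therefore the standard errors of the authors' model, no spread between replicates can be shown, and the depth of each library is unknown. The header does not name the numerator of the fold change, so changes are called positive or negative and not gains or losses under octanoate. An adjusted p-value was computed for 36436 regions in the authors' deposited table, those with a mean level above 18.442; these are called tested regions. The steps of the mean levels match averages over 8 values, while the labels list 4 libraries; which libraries entered the levels and the fold changes is not stated. Tested regions had a median log2 fold change of 0.32 in the authors' deposited table and 87.3% were positive, so each Notch region is read against 0.32 as well as against 0. As a check of cell type, regions were listed at distance 0 from the starts of 5 of 9 genes of the melanocyte lineage (MITF, SOX10, PMEL, S100B and PAX3), with levels from 55.2 to 774 in the authors' deposited table. None was listed at distance 0 for the pigment genes MLANA, TYR, TYRP1 and DCT, while of 7 genes of other lineages EPCAM alone had one, at a level of 50.5.

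The promoters of HES1 and HEY2 are printed because they hold the letters that RBPJ is known to bind and deposited regions lie over them. Deposited regions also lie over the promoters of NOTCH1, NOTCH2 and JAG1 and over part of the DLL4 promoter. The RBPJ word is GTGGGAA, which contains its core TGGGAA; both were searched on both strands in the RefSeq promoters of GRCh38.p14, from 250 bases before to 50 after each start. Of the 10 genes, 8 had an entry: the 3 receptors, JAG1, JAG2, DLL4, HES1 and HEY2. TGGGAA and GTGGGAA were each found in 2 of these 8 promoters, those of HES1 and HEY2, against 24.3% and 6.28% of all 27305 promoters. For the core TGGGAA this is about the share of all promoters, and neither share was tested. In the windows below, cut 6 bases after the start and read on the plus strand, capitals mark the core on either strand in HES1 (chr3:194135898-194136153) and HEY2 (chr6:125749382-125749637).
HES1: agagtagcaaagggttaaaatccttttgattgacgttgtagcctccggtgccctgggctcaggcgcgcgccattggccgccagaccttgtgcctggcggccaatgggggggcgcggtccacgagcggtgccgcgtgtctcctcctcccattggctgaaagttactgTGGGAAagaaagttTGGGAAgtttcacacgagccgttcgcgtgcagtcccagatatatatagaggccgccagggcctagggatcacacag
HEY2: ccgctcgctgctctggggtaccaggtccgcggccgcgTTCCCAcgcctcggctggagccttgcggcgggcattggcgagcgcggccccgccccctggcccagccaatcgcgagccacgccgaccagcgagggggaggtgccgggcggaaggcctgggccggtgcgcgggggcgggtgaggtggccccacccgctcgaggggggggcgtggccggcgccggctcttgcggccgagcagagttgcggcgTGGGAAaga
In HES1 the cores begin 84 and 70 bases before the start and point the same way. In HEY2 they begin 213 and 3 bases before the start and point in opposite directions. Only these exact letters were searched, so an RBPJ site with other letters would not be marked. The E-box CACGTG and the AP-1 word TGANTCA were in 0 of the 8 promoters, against 7.43% and 7.76% of all promoters. At shares this low, a count of 0 among 8 promoters says little. CACNAG, the N-box of HES proteins, was in 5 of the 8 (the 3 receptors, DLL4 and HES1), against 38.0%. None of these shares was tested. The 8 promoters held 59.0% to 79.7% of the letters G and C, beside a median of 58.3% over all promoters. A match is a description of the letters and not of binding.

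None of the Notch regions passed the authors' test. Of the 121 regions, 46 were tested, and 0 of them had an adjusted p-value under 0.05 in the authors' deposited DESeq2 comparison, where 1.67% of all tested regions did. At an unadjusted p-value under 0.05 there were 9 of 46, or 19.6%, all positive, beside 18.4% of all tested regions in the authors' deposited table (17.9% with a positive change). The median log2 fold change of the 46 regions was 0.33, a ratio of 1.26, with 43 positive and 3 negative values in the authors' deposited table. Their spread was an SD of 0.27 between regions, beside a root mean square standard error of 0.32, so it was no larger than the error of a single region. Over all tested regions these values were 0.309 and 0.306. The regions share libraries, so this is no test of whether they differ. In 20 bins of all tested regions by mean level, 41 of the 46 lay between the 5th and 95th percentile of their bin, 5 lay above it and 0 below.

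**Figure D1:**
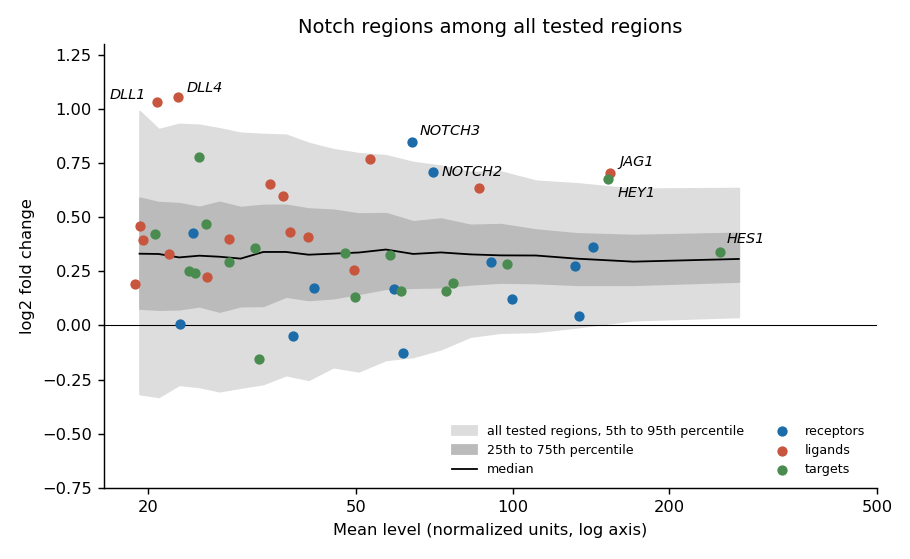
Mean level (x axis, log scale, authors' normalized units) against log2 fold change (y axis) for the 46 tested Notch regions, coloured by role, over the bands and median of all tested regions in 20 bins of level. The Notch regions scatter around the black median line, with NOTCH3, DLL1, DLL4, JAG1 and HEY1 regions above the outer band.

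By role, the medians in the authors' deposited table were 0.17 for 13 tested receptor regions, 0.45 for 16 ligand regions and 0.29 for 17 target regions. Above the common median of 0.32 lay 4 of 13 receptor, 13 of 16 ligand and 8 of 17 target regions. Unadjusted p-values under 0.05 belonged to 2 receptor (15.4%), 5 ligand (31.25%) and 2 target (11.8%) tested regions of the authors' deposited table. Of all tested regions, 18.4% had such a value. The 5 ligand regions were 3 of JAG1 and 1 each of DLL1 and DLL4. The difference between roles was not tested, because regions of 1 gene share a neighbourhood and all share the same libraries. The ligand value rests mostly on JAG1, which holds 14 of the 16 regions; the other 2, of DLL1 and DLL4, had a median of 1.04.

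**Figure D2:**
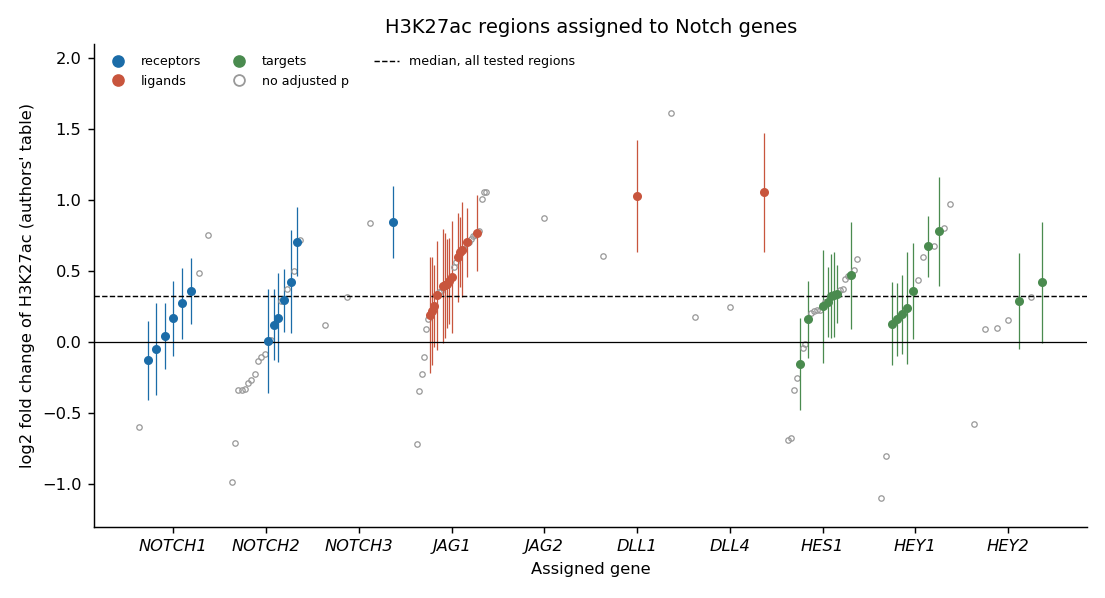
log2 fold change (y axis) of every region assigned to the 10 genes (x axis) in the authors' deposited table; filled points are the 46 tested regions with bars of 1 standard error, and open grey points are the 75 regions with no adjusted p-value. Tested JAG1 regions lie at or above 0.19, while tested NOTCH1 regions run from -0.13 to 0.36.

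NOTCH1, the receptor best known from T-cell leukaemia, had 9 regions, 6 of them tested. The region over its start (chromosome 9, 136543422 to 136547980) had a mean level of 132 and a log2 fold change of 0.27 ± 0.25 (standard error; adjusted p = 0.504) in the authors' deposited table. The same region overlaps the RefSeq genes NALT1 and MIR4674, and no strand is given for it. The highest NOTCH1 level, 142, was in a region 18313 bases upstream (136564099 to 136569272), with 0.36 ± 0.23 (adjusted p = 0.366) in the authors' deposited table. The 6 tested NOTCH1 values ran from -0.13 to 0.36 with a median of 0.11, and 5 lay below the common median of 0.32. In the authors' deposited table the lowest, -0.13 ± 0.28, was inside the gene (136525628 to 136528776). NOTCH1 thus had high levels of the mark and small fold changes, none beyond 2 standard errors from 0.

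NOTCH2, a receptor also active in the melanocyte lineage, had 22 regions, of which 6 were tested. Its start region (chromosome 1, 120066397 to 120072337) had a level of 99.8 and a log2 fold change of 0.12 ± 0.25 (adjusted p = 0.761) in the authors' deposited table. A wide region of 7940 bases lying 40506 bases upstream (120110132 to 120118072) had 0.71 ± 0.24 in the authors' deposited table (p = 0.00343 before and 0.0972 after adjustment). The 95% interval of that upstream region, 0.23 to 1.18, overlapped the interval of the start, -0.36 to 0.61. Overlap is not a test, and the difference between these regions was not tested. Its level per kb was 8.85, lower than in all but 0.497% of tested regions. The other 4 tested NOTCH2 regions had 0.01, 0.17, 0.29 and 0.43 in the authors' deposited table. NOTCH2 has near-identical partial copies, listed as NOTCH2NL with 20 regions of which 3 were tested. How reads that fit several copies were treated, and which NOTCH2 regions the copies match, is not given in the sources used here. Values inside the gene, at its start and upstream are uncertain for that reason.

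NOTCH3, known mainly from vascular smooth muscle, had the smallest p-value of the 10 genes. Its only tested region (chromosome 19, 15209335 to 15212060), which lies 8354 bases upstream of the start and overlaps no RefSeq gene, had a level of 64.1 and a log2 fold change of 0.85 ± 0.26 in the authors' deposited table. Its unadjusted p-value was 0.000952 and the adjusted one 0.0530, just outside the threshold, and the 95% interval was 0.34 to 1.35. Adjusted over all distinct regions, the p-value of this region was 0.128. Its fold change exceeded that of 95.6% of tested regions. With 0.32 subtracted from every fold change it was 0.52 (p = 0.0412 before and 0.826 after adjustment), computed from the authors' deposited table; of the 46 regions this was the only one with a centred p under 0.05, as 5.73% of all tested regions had. No region analysed here lay within 250 bases of the RefSeq start of NOTCH3. The nearest region inside the gene, 4982 bases from the start, had a level of 16.7, no adjusted p-value and 0.84 ± 0.47 in the authors' deposited table.

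Among the ligands, JAG1 had the most tested regions and the highest level. JAG1, a membrane ligand whose loss causes Alagille syndrome, had 33 regions, 14 of them tested, reaching 591168 bases upstream. The gene assignment is that of the deposited table, and whether the distant regions act on JAG1 was not tested. The start region (chromosome 20, 10670653 to 10675625) had a level of 154 and a change of 0.70 ± 0.24 in log2 in the authors' deposited table (p = 0.00402 before and 0.104 after adjustment). A region 325773 bases upstream (10999772 to 11003668) had 0.77 ± 0.27 in the authors' deposited table (p = 0.00434 before and 0.109 after adjustment). Another, 54083 bases upstream, had 0.64 ± 0.25 (unadjusted p = 0.00970) in the authors' deposited table. All 14 tested JAG1 values were positive, between 0.19 and 0.77 (median 0.42) in the authors' deposited table, and 11 lay above 0.32. The 6 regions within 100000 bases of the start had a median of 0.52 and the 8 farther ones 0.42. The SD over the 14 regions, 0.18, was smaller than their root mean square standard error of 0.34. These regions also share libraries, so this is no test of whether they differ. After subtraction of 0.32 the start region was at 0.38, with an unadjusted p-value of 0.120.

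The other ligands had 7 regions in all, none with a level above 22.8. DLL4, a ligand of sprouting endothelium, had 3 regions and 1 tested, the one over its start (chromosome 15, 40929313 to 40931125). Its level was 22.8, and its log2 fold change of 1.05 ± 0.42 in the authors' deposited table was the largest among tested Notch regions (p = 0.0113 before and 0.163 after adjustment). The promoter is printed next (chr15:40929090-40929345, plus strand, cut as above) to place the edge of that region against the start: the 32 bases in capitals lie inside it and the others before it. Whether the table counts from 0 or 1 is not stated, which can shift this edge by 1 base.
DLL4: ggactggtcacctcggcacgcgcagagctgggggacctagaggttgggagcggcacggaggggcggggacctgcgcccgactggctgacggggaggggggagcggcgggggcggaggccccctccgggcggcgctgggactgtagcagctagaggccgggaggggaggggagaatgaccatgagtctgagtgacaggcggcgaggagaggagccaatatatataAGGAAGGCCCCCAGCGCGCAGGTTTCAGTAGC
DLL1, a ligand of somite and neural development, had a tested region 201286 bases from its start (chromosome 6, 170087541 to 170089188) with a level of 20.8 and 1.03 ± 0.39 in the authors' deposited table (p = 0.00904 before and 0.149 after adjustment). The region listed at distance 0 from the DLL1 start, which lies within 250 bases of the upper end of the RefSeq gene span without covering it and is also assigned to FAM120B, had a level of only 7.69, no adjusted p-value, and 1.61 ± 0.72 (unadjusted p = 0.0260) in the authors' deposited table, where 2.7% of all regions without an adjusted p-value had an unadjusted one under 0.05. At levels this low the intervals are wide: 0.19 to 3.03 for the DLL1 region at distance 0, 0.26 to 1.81 for the distant DLL1 region and 0.24 to 1.87 for DLL4. JAG2 had a single region, inside the gene and 14843 bases from its start (chromosome 14, 105153075 to 105153982), with a level of 9.80, no adjusted p-value and 0.87 ± 0.56 in the authors' deposited table. No region analysed here lay within 250 bases of the RefSeq start of JAG2.

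HES1, a repressor that keeps progenitor cells undifferentiated, lay under the Notch region of highest total level, 12691 bases wide (chromosome 3, 194131083 to 194143774), wider than 98.7% of tested regions. In the authors' deposited table its level was 250 and its change 0.34 ± 0.20 on the log2 scale (adjusted p = 0.341), 0.01 above the common median. HES1 had 25 regions up to 269212 bases away. Its 8 tested values ran between -0.15 and 0.47 (median 0.30) in the authors' deposited table, 4 above 0.32 and 4 below. None of the 8 had an unadjusted p-value under 0.05.

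HEY1 and HEY2 are HES relatives known from heart and vessel development. The HEY1 region of highest total level (chromosome 8, 79791550 to 79799701), 8151 bases wide and 25075 bases from the start, overlaps the non-coding genes LINC01607 and LOC101927040. In the authors' deposited table its level was 153 and its change 0.68 ± 0.22 on the log2 scale (p = 0.00174 before and 0.0710 after adjustment). Its level per kb was 18.7, and the highest HEY1 level per kb, 26.8, was in a region 4451 bases from the start. The region 413 bases from the HEY1 start had 0.78 ± 0.39 in the authors' deposited table (unadjusted p = 0.0429). Its neighbour 444 bases from the start on the other side, which covers the upper end of the RefSeq gene span, had 0.24 ± 0.39 in the authors' deposited table. All 7 tested HEY1 values were positive, from 0.13 to 0.78, and 4 of them lay below 0.32. HEY2 had 2 tested regions of low level. The one listed 571 bases from its start (chromosome 6, 125748234 to 125750128) covers the RefSeq start and the promoter printed above, with a level of 20.6 and 0.42 ± 0.43 in the authors' deposited table. The other, 212986 bases away, had a level of 28.6 and 0.29 ± 0.34 in the authors' deposited table.

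**Figure D3:**
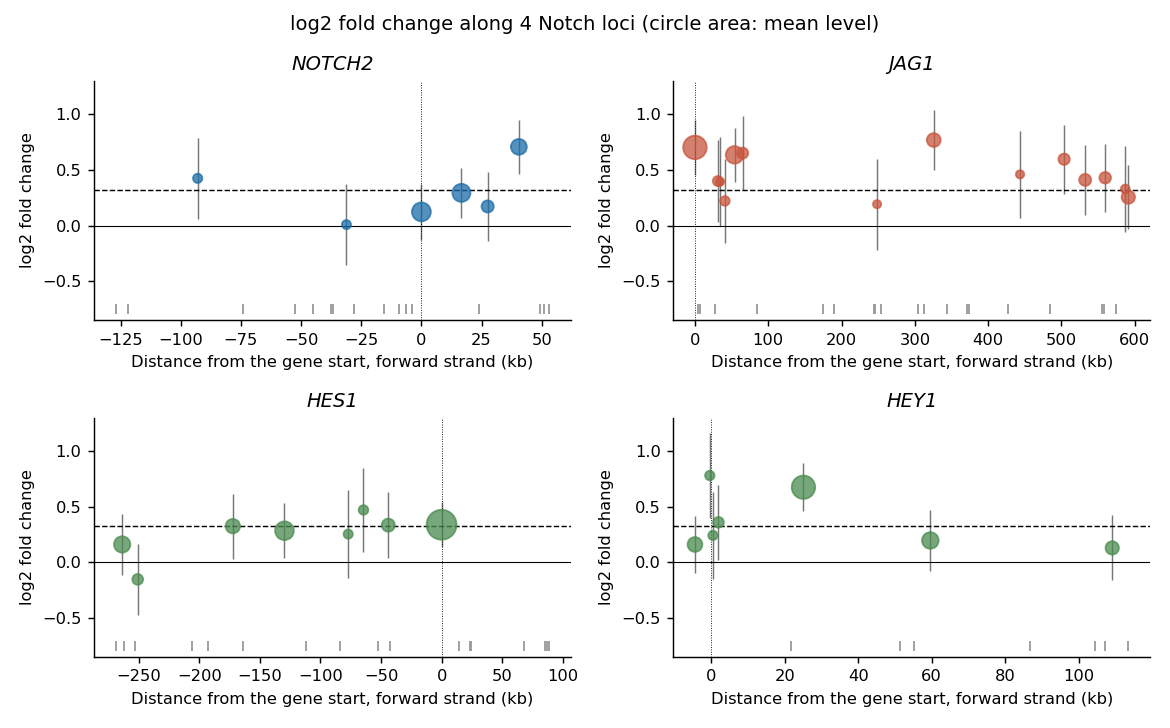
log2 fold change (y axis, bars of 1 standard error) of tested regions against distance from the gene start in kb along the forward strand (x axis) at NOTCH2, JAG1, HES1 and HEY1; circle area is the mean level, grey ticks are regions with no adjusted p-value and the dashed line is the median of 0.32. Tested JAG1 and HEY1 regions all lie above 0, and the large HES1 circle at the start sits on the dashed line.

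A region at distance 0 from the gene start was listed for 6 of the 10 genes in the authors' deposited table. The order of mean level was HES1 (250), JAG1 (154), NOTCH1 (132), NOTCH2 (99.8), DLL4 (22.8) and DLL1 (7.69). Per kb of region the order changed to JAG1 (31.0), NOTCH1 (29.0), HES1 (19.7), NOTCH2 (16.8), DLL4 (12.6) and DLL1 (9.28), where the median of all tested regions was 19.3. Neighbours in these orders cannot be said to differ, since the authors' deposited table gives no spread of the level. The fold changes of these 6 regions, 5 of them tested, were all positive in the authors' deposited table. Of the 9996 tested regions that it lists at distance 0 from any gene, 98.1% were positive and the median was 0.35. Distance 0 is the table's own and is not the same as covering a RefSeq start: the HEY2 region listed at 571 bases covers one, and the DLL1 region does not.

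**Figure D4:**
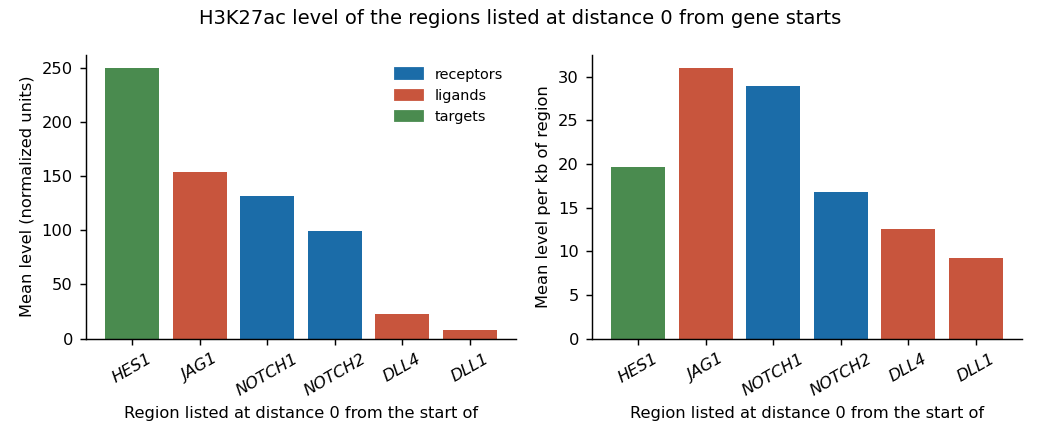
Mean level (left, authors' normalized units) and mean level per kb of region (right) for the 6 regions listed at distance 0 from a Notch gene start, coloured by role. HES1 is highest in total and JAG1 per kb, at 31.0; there are no error bars because the table gives no spread of the level.

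The wider pathway was taken from 57 other genes, all present in the table, with 418 regions of which 186 were tested. Of these, 3 were called positive and 0 negative, or 1.61%, against 1.65% of all tested regions called positive and 0.0192% called negative in the authors' deposited table. At an unadjusted p-value under 0.05 there were 25, or 13.4%, beside 18.4% of all tested regions, and the median log2 fold change was 0.32 in the authors' deposited table. The 3 calls lay at HES7, NUMB and HES4. HES7, a HES repressor of the segmentation clock, had a region of 7970 bases at distance 0 from its start (chromosome 17, 8120416 to 8128386) with a level of 197 and 1.16 ± 0.23 in the authors' deposited table (adjusted p = 0.000553). HES4 (chromosome 1, 999351 to 1002299) had 1.07 ± 0.30 (adjusted p = 0.0350) in the authors' deposited table, in a region at distance 0 that the table also assigns to ISG15, an interferon-induced gene. NUMB, an inhibitor that removes the receptor, had 0.81 ± 0.21 at distance 0 (chromosome 14, 73455135 to 73468428; adjusted p = 0.0190) in the authors' deposited table. With 0.32 subtracted none of the 3 passed, with adjusted p-values of 0.104 for HES7, 0.683 for NUMB and 0.590 for HES4. Adjusted over all distinct regions, HES7 (0.00138) and NUMB (0.0472) passed, and HES4 (0.0863) did not.

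By group, the HES2, HES4, HES5, HES6, HES7, HEYL and NRARP list had 19 regions and 6 tested ones, 3 of them at HES7 and 1 each at HES2, HES4 and HES5. These 6 had a median of 0.72 and all lay above 0.32 in the authors' deposited table, and HES6, HEYL and NRARP had no tested region. The 16 regions of other ligands and receptors had 0.50, the 15 of the proteases 0.42 and the 7 of the glycosyltransferases 0.42 in the authors' deposited table. The 26 regions of trafficking and ubiquitin genes had 0.34, the 80 of the nuclear complex around RBPJ and Mastermind 0.29 and the 36 of corepressors 0.20 in the authors' deposited table. The differences between groups were not tested.

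**Figure D5:**
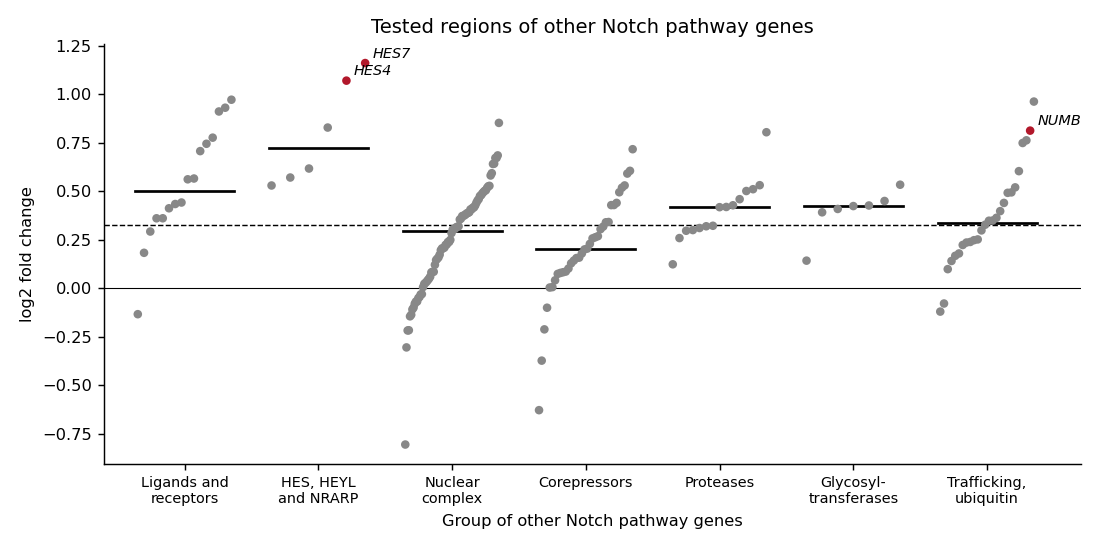
log2 fold change (y axis) of the tested regions of other Notch pathway genes in 7 groups (x axis); black bars are group medians, red points have an adjusted p-value under 0.05 and the dashed line is the median of all tested regions, 0.32. The 3 red points are HES7 (1.16), HES4 (1.07) and NUMB (0.81).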

How the data were processed

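H3K27ac chromatin immunoprecipitation and sequencing was done on 4 libraries of A375 cells, grouped by the treatment in the labels. The submitters' processing notes list Trim Galore, cutadapt, FastQC, Bowtie2, Picard, MACS2, featureCounts, DESeq2, bedtools 2.29.1 and the build hg38, with no role or order. Per the file headers, the mean level is a normalized signal of the authors. All mean levels were multiples of 1e-06 divided by 8 (within 0.01 of a whole number) and 50.1% were multiples of 1e-06 divided by 4. Such steps match a mean over 8 values of 6 decimals, while the labels list 4 libraries, so the levels may include others; which libraries entered is not stated. The log2 fold change, its standard error, the score (fold change over standard error) and the p-value columns are the authors', per the file headers. The distance is signed by coordinate, per the file headers, and regions at 0 are called start regions. Coordinates are given as in the table.

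Lines repeating a region for another gene were merged. Benjamini-Hochberg adjustment over regions whose deposited adjusted p was below 1 returned the deposited values within 1.58e-14, so a deposited 1 was read as not computed. For centring, the median was subtracted, the two-sided normal p-value taken from the authors' standard error and adjusted again; the procedure was tested on simulated data. 95% intervals are 1.96 standard errors to each side. No value per library was analysed (0 columns of single libraries left out), so the planned edgeR test, the comparison of patterns across samples and leaving out libraries could not be run. Named regions were, for each gene, those over the start and with the highest level or smallest p-value; further regions of a gene were named after their values were seen. The members and lists were chosen with earlier results of these data known. An item of the wider pathway list is not reported here and was left out of its counts. Python 3.11.15, pandas 2.3.3 and scipy 1.17.1 were used.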

Additional observations from a re-analysis of the deposited data

How the results depend on the processing

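The count of 0 Notch calls was the same at an adjusted p-value under 0.01, with a minimum log2 fold change of 1 either way, after adjustment over all distinct regions or all lines, after both centrings and with 1 region per gene. The median of all 46 tested Notch regions stayed within 0.1 of 0.33 except after centring on the median of tested regions, where it was 0.0082. Centring, which subtracts a positive value by construction, also put the receptors at -0.15, the ligands at 0.12 and the targets at -0.032, and reversed the start regions of NOTCH1 (-0.050) and NOTCH2 (-0.20) and the distant HEY2 region (-0.032). The ligand median of 0.45 was 0.55 over all 40 regions and 0.64 for the 7 within 100000 bases. It was 0.88 for 2 regions at distance 0, 1.04 for 2 without JAG1 and 1.03 as a median of 3 gene medians. The DLL4 start region, at a level of 22.8, entered each of these last settings, so they are not independent. The ligand median was 0.70 when levels under 100 were dropped, where 1 region was left. There the receptors had 0.27 from 3 regions and the targets 0.51 from 2; the cause was not tested. No paired analysis was possible because the table lists no single libraries. This is also why edgeR, size factors, filters on counts and leaving out each library were not run. The depth per library is unknown, and the authors' standard errors of the 46 tested regions ran from 0.20 to 0.43.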

Other observations

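Several regions of the wider pathway had values on the negative side or without an adjusted p-value; they were chosen after their values were seen. A region 66441 bases from the start of TLE1, a Groucho corepressor that works with HES proteins, had a log2 fold change of -0.63 ± 0.29 (standard error; unadjusted p = 0.0298) in the authors' deposited table. A MAML2 region 350949 bases from the start had -0.81 ± 0.37 (unadjusted p = 0.0305) in the authors' deposited table; MAML2 is a Mastermind coactivator. Neither passed after adjustment (0.226 and 0.228). Of the low-level regions beside starts, HES2 had 1.20 ± 0.42 at a level of 18.43 and HEYL -1.02 ± 0.41 at a level of 16.9 in the authors' deposited table, both without an adjusted p-value. Among the 75 Notch regions without an adjusted p-value, 2 had an unadjusted one under 0.05 in the authors' deposited table, the DLL1 region at distance 0 and a HEY1 region 55294 bases away (0.97 ± 0.47), beside 2.7% of all such regions.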
